A study of Arabidopsis thaliana with 29 samples.

Results

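The nuclear genes examined here encode subunits of the 2 photosystems, the electron carriers that connect them and the plastid ATP synthase. They are 32 loci chosen by function from 59999 in the count table: 12 for photosystem I, 10 for photosystem II, 7 for electron carriers and 3 for the ATP synthase. All 32 matched a nuclear gene of the RefSeq table and had enough counts to be tested. RNA was measured in 7-day-old Arabidopsis thaliana seedlings of 3 groups, grown on medium with sucrose under white light, with 16 h of light and 8 h of darkness a day. The fusca group consisted of seedlings of the line 2x35S::GFP-HY5/hy5 that showed the fusca phenotype, a name from mutants whose seedlings turn dark with anthocyanin. The GFP-HY5 group was the same line with no such note in its labels. The headers of its count columns carry the tag comp, where those of the fusca group carry the tag fusca. The WT group is labelled only as wild type. Fusca and GFP-HY5 seedlings thus shared a hy5 mutant background and a GFP fusion of HY5 driven by the 35S promoter, which is active in most plant cells, so the transgene was not under the control of HY5's own promoter. HY5 is a bZIP transcription factor that promotes light-dependent seedling development. The ecotype, the number of transgenic lines and the number of seedlings per sample are not given in the sources used here. Nothing states that replicates came from separate cultures, so p-values measure only the spread between these samples.

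In oxygenic photosynthesis, photosystem II takes electrons from water and passes them through the cytochrome b6f complex to plastocyanin. Photosystem I then lifts them to ferredoxin, from which ferredoxin-NADP reductase makes NADPH, while the proton gradient drives the ATP synthase. The catalytic cores are encoded in the plastid, while many peripheral subunits and soluble carriers are encoded in the nucleus, so the 2 genomes must supply each complex together. In cotyledons the nuclear genes are known to be switched on by light and by the transcription factors GLK1 and GLK2.

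The 3 columns of the GFP-HY5 group held the same value at every locus, so they count as 1 sample, which has no replicate error. Fusca and WT had 3 libraries each, and counts over loci were between 11860094 and 12545563 in the 7 distinct libraries. Levels are CPM, that is counts divided by the library size after adjustment with TMM factors, which were 1.11 to 1.26 in fusca, 0.911 in GFP-HY5 and 0.839 to 0.888 in WT. Values of 3 libraries are listed in the order of replicates 1, 2 and 3, and errors are SD over 3 libraries unless named otherwise. HY5 (AT5G11260), whose counts do not separate the transgene from the endogenous gene, averaged 149 ± 33.0 CPM in fusca, 77.4 CPM in GFP-HY5 and 14.1 ± 2.04 CPM in WT (n = 3 in fusca and WT). Fusca replicate 2 stood apart, with 2828 counts at 9 seed storage and oil body loci, against 33 and 31 in the other fusca libraries, 10 in GFP-HY5 and 19 to 52 in WT. The labels give no batch.

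The 32 genes were all lower in fusca than in WT, and by a wide margin. They held 0.2503%, 0.423% and 0.269% of the counts over loci in fusca, 3.805% in GFP-HY5 (Wilson 95% interval 3.79% to 3.82%) and 3.92%, 3.81% and 4.44% in WT. Every fusca library lay below every WT library for each of the 32, and each gene was at least 2-fold lower. The median log2 fold change was -4.29, a level 19.6-fold lower in fusca, and single genes ranged from 4.76-fold lower for the ferredoxin gene FD1 to 202-fold lower for the plastocyanin gene PETE1. All 32 passed the threshold of 0.05 in edgeR's quasi-likelihood test, with Benjamini-Hochberg adjusted p between 4.35e-07 and 0.000236. Over all 21820 tested loci, 35.1% passed in either direction, 18.4% passed as lower in fusca and 11.8% passed as at least 2-fold lower. Of the calls over all loci 47.6% were higher in fusca, a share that was 79.8% with scaling by library size only and 61.1% with upper-quartile factors, while all 32 genes remained lower under both. Over the same loci 24.4% had every fusca library below every WT library, and the median log2 fold change was 0.05. A fold change as low as the median of the 32 genes or lower was found at 203 loci, or 0.93%. These are whole seedlings, in which fewer photosynthetic cells and less RNA per cell cannot be told apart. Leaving out fusca replicate 2 left all 32 lower, with a median of -4.66.

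**Figure D1:**
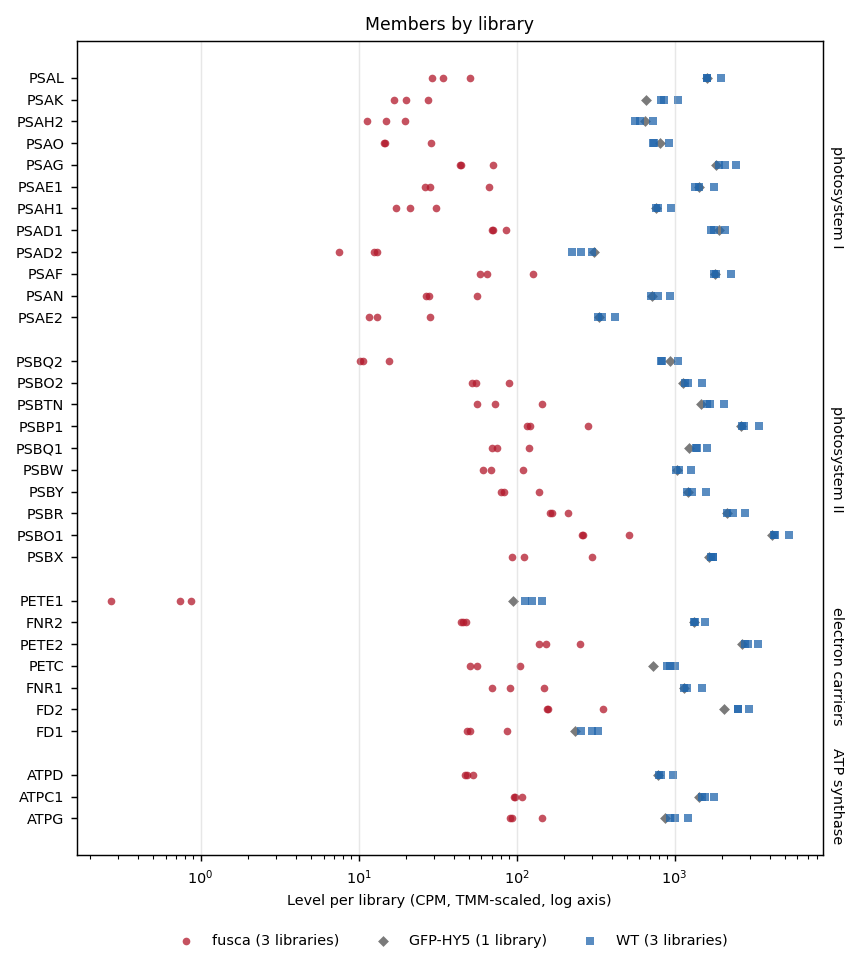
Level of each of the 32 genes in each library, in CPM after TMM scaling on a log axis, grouped by complex. Circles are the 3 fusca libraries, the diamond is the 1 GFP-HY5 library and squares are the 3 WT libraries; no fusca circle reaches a WT square, and PETE1 lies below 1 CPM in fusca.

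Photosystem I had the lowest median of the complexes, with 12 of 12 genes lower in fusca, a median log2 fold change of -5.20 and a range of -5.50 to -4.37. PSAL (AT4G12800), a membrane subunit on the side where light-harvesting complexes of photosystem II dock, had 34.1, 50.6 and 29.1 CPM in fusca, 1611 CPM in GFP-HY5 and 1594, 1600.5 and 1965 CPM in WT. The fusca libraries were far below all others, and GFP-HY5 lay within the WT range. Its log2 fold change was -5.50 ± 0.28 (SE; edgeR adjusted p = 1.16e-06), or 45.4-fold lower. PSAO (AT1G08380) and PSAH2 (AT1G52230), of the same docking side, changed by -5.36 and -5.38 on the log2 scale, and the second gene for that subunit, PSAH1 (AT3G16140), by -5.17.

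The subunits that hold the photosystem I antenna were lower as well. PSAK (AT1G30380), one of 2 membrane subunits at the edge of the complex, had 19.9, 27.3 and 16.7 CPM in fusca, 664 CPM in GFP-HY5 and 862, 825 and 1046 CPM in WT. Fusca and WT were far apart at this gene, and GFP-HY5 lay below all WT libraries. The log2 fold change of PSAK in fusca was -5.42, and that of the other edge subunit, PSAG (AT1G55670), was -5.34. Per kb of gene span, which includes introns, PSAG had 67.9 CPM per kb in fusca, 2333 CPM per kb in GFP-HY5 and 2743 CPM per kb in WT, which ranked 11 of 32 in fusca and 1 of 32 in WT.

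The stromal subunits encoded in the nucleus, PSAD and PSAE, on which ferredoxin docks, are each encoded by a pair of genes. PSAD1 (AT4G02770) had 70.6, 85.7 and 69.4 CPM in fusca, 1913 CPM in GFP-HY5 and 1789, 1699.9 and 2085 CPM in WT, and its log2 fold change was -4.63 ± 0.21 (SE; edgeR adjusted p = 7.33e-07). PSAD2 (AT1G03130) had 7.56, 13.2 and 12.6 CPM in fusca, 310.3 CPM in GFP-HY5 and 257, 225 and 302 CPM in WT. Its fusca libraries were again the lowest, and it was the only gene of the 32 whose GFP-HY5 level lay above the WT range. PSAE1 (AT4G28750) changed by -5.23 ± 0.40 and PSAE2 (AT2G20260) by -4.37 ± 0.35 on the log2 scale (SE). On the lumenal side, PSAF (AT1G31330), where plastocyanin docks, changed by -4.55, and PSAN (AT5G64040), a lumenal subunit, by -4.46 on the log2 scale.

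Photosystem II genes were lower in 10 of 10 cases, with a median log2 fold change of -3.92. All but PSBQ2 lay between -4.29 and -3.36, closer to WT than every photosystem I gene, a difference between the complexes that was not tested. Over the alternatives described below this order did not always hold, as the lowest log2 fold change was -4.78 for PSBTN and -4.70 for PSAD2. PSBO1 (AT5G66570), the main gene for the protein that stabilises the manganese cluster of water oxidation, had 260.1, 518 and 264 CPM in fusca, 4131 CPM in GFP-HY5 and 4282, 4338 and 5293 CPM in WT. Fusca replicate 2 was nearly 2-fold above the other fusca libraries here and far below WT. The log2 fold change of PSBO1 was -3.74 ± 0.33 (SE; edgeR adjusted p = 2.26e-05). That of the second gene, PSBO2 (AT3G50820), was -4.29, and that of PSBP1 (AT1G06680), another extrinsic protein of the oxygen-evolving side, was -4.08.

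The 2 genes for the third extrinsic protein, PSBQ, separated. PSBQ2 (AT4G05180) had 10.3, 15.6 and 10.6 CPM in fusca, 934 CPM in GFP-HY5 and 821, 837 and 1052 CPM in WT, a log2 fold change of -6.22 ± 0.26 (SE; edgeR adjusted p = 5.2e-07) and a level 74.4-fold lower in fusca. PSBQ1 (AT4G21280) had 69.9, 119.7 and 74.8 CPM in fusca, 1241 CPM in GFP-HY5 and 1379, 1363 and 1616 CPM in WT, a log2 fold change of -4.04 ± 0.26 (SE; edgeR adjusted p = 3.81e-06) and a level 16.5-fold lower. Per kb of gene span, PSBQ2 had 7.06 CPM per kb in fusca, 543 CPM per kb in GFP-HY5 and 525 CPM per kb in WT. PSBQ1 had 60.2 CPM per kb in fusca, 848 CPM per kb in GFP-HY5 and 992 CPM per kb in WT, so the 2 genes were within 2-fold of each other in GFP-HY5 and WT and far apart in fusca.

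The smaller photosystem II subunits covered the range of the complex outside PSBQ2. PSBR (AT1G79040), which helps the oxygen-evolving proteins assemble, changed by -3.74, PSBW (AT2G30570), which stabilises the supercomplex with its antenna, by -3.80, PSBY (AT1G67740) by -3.76 and PSBTN (AT3G21055), a small lumenal subunit, by -4.29 on the log2 scale. PSBX (AT2G06520), a small membrane subunit, had 112, 301 and 93.5 CPM in fusca, 1655 CPM in GFP-HY5 and 1695, 1759.7 and 1745 CPM in WT. Its replicate 2 in fusca was 1.56 above the mean of replicates 1 and 3 on the log2 scale, the widest such gap among the 32, and all 3 fusca libraries stayed below WT. PSBX had the least change in this complex, a log2 fold change of -3.36 ± 0.43 (SE; edgeR adjusted p = 0.000236), and the highest fusca level per kb of gene span among the 32, with 234 CPM per kb in fusca, 2298 CPM per kb in GFP-HY5 and 2407 CPM per kb in WT. Over the alternatives described below the lowest value of PSBX was -4.08 and that of PSBR was -3.88, so PSBX did not always change least. The fusca level per kb is a mean that includes the high replicate 2, and FD2 followed with 226 CPM per kb.

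**Figure D2:**
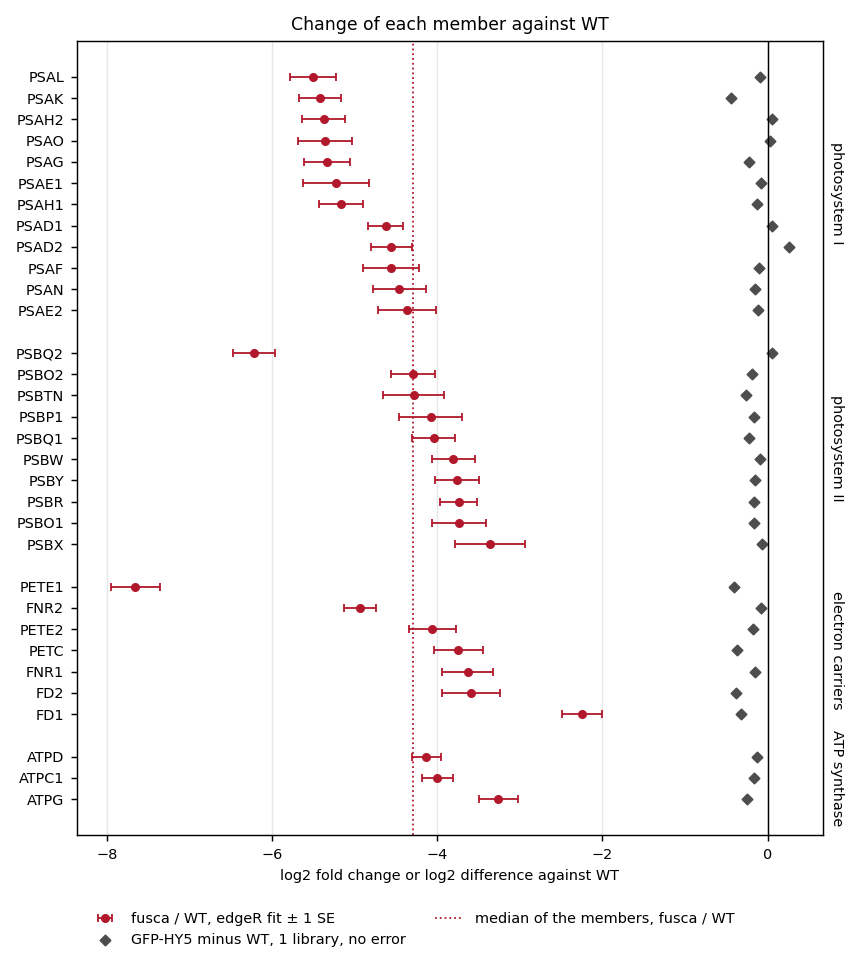
Fusca against WT (circles, edgeR log2 fold change with 1 SE) and GFP-HY5 minus WT (diamonds, difference in log2 CPM of 1 library, with no error) for each of the 32 genes, grouped by complex and ordered within it. The dotted line is the fusca median of -4.29; circles run from -7.66 at PETE1 to -2.25 at FD1, and diamonds lie between -0.45 and 0.26.

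The electron carriers held both ends of the range, with 7 of 7 genes lower and a median log2 fold change of -3.75. PETC (AT4G03280), the Rieske iron-sulfur protein and nuclear-encoded redox subunit of cytochrome b6f, had 56.3, 105 and 50.9 CPM in fusca, 733 CPM in GFP-HY5 and 899, 929.7 and 1012 CPM in WT. Fusca lay far below the others, and GFP-HY5 lay below all WT libraries. Its log2 fold change was -3.75 ± 0.29 (SE; edgeR adjusted p = 1.21e-05).

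Plastocyanin, the copper protein that carries electrons to photosystem I, has 2 genes. PETE1 (AT1G76100) was nearly absent in fusca, with 4, 12 and 11 counts in fusca, 1082 counts in GFP-HY5 and 1392, 1247 and 1432 counts in WT. That is 0.270, 0.872 and 0.737 CPM in fusca, 95.5 CPM in GFP-HY5 and 126, 113 and 144 CPM in WT. Counts in fusca replicate 1 were close to 3, the number taken as a floor, which corresponds to 0.202 CPM there, so counting error bears more on this gene than on the others. Its log2 fold change was -7.66 ± 0.30 (SE; edgeR adjusted p = 4.35e-07). PETE2 (AT1G20340), the main plastocyanin gene, had 139.5, 252 and 153 CPM in fusca, 2677 CPM in GFP-HY5 and 2923, 2786 and 3377 CPM in WT and a log2 fold change of -4.06 ± 0.28 (SE; edgeR adjusted p = 6.23e-06).

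Ferredoxin, the iron-sulfur protein that takes electrons from photosystem I, is encoded in leaves by FD1 and FD2, and FD1 showed the smallest change of the 32 genes. FD1 (AT1G10960), the minor leaf gene, had 50.8, 86.5 and 48.7 CPM in fusca, 235 CPM in GFP-HY5 and 302, 256 and 327 CPM in WT. The highest fusca library, at 86.5 CPM, was below the GFP-HY5 library and all WT libraries. Its log2 fold change was -2.25 ± 0.24 (SE; edgeR adjusted p = 7.94e-05). FD2 (AT1G60950), the major leaf gene, had 159, 352 and 156 CPM in fusca, 2054 CPM in GFP-HY5 and 2529, 2538 and 2976 CPM in WT and a log2 fold change of -3.59 ± 0.35 (SE; edgeR adjusted p = 4.22e-05). By CPM per kb of gene span FD1 ranked 10 of 32 in fusca and 30 of 32 in WT, while FD2 ranked 2 of 32 in both.

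Ferredoxin-NADP reductase has 2 leaf genes. FNR2 (AT1G20020) had 44.4, 46.1 and 47.7 CPM in fusca, 1334 CPM in GFP-HY5 and 1327, 1353 and 1555 CPM in WT, with fusca libraries close to each other, and its log2 fold change was -4.94 ± 0.19 (SE; edgeR adjusted p = 4.35e-07). FNR1 (AT5G66190) had 69.8, 150.2 and 91.0 CPM in fusca, 1152 CPM in GFP-HY5 and 1203, 1151 and 1501 CPM in WT and a log2 fold change of -3.63 ± 0.30 (SE; edgeR adjusted p = 1.73e-05). Fusca replicate 2 was the highest fusca library for FNR1 and not for FNR2.

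The 3 nuclear subunits of the plastid ATP synthase were all lower, with a median log2 fold change of -4.00. ATPC1 (AT4G04640), the rotating gamma subunit, had 97.0, 108 and 97.8 CPM in fusca, 1439 CPM in GFP-HY5 and 1553, 1504 and 1780.1 CPM in WT. ATPD (AT4G09650), the delta subunit of the stalk, had 47.3, 48.3 and 52.6 CPM in fusca, 789 CPM in GFP-HY5 and 826, 796 and 975 CPM in WT. Both varied little among the fusca libraries, and their log2 fold changes were -4.00 ± 0.19 and -4.13 ± 0.18 (SE; edgeR adjusted p = 8.27e-07 and 6.65e-07). ATPG (AT4G32260), a subunit of the peripheral stalk, changed least of the 3, by -3.26 ± 0.24 on the log2 scale (SE; edgeR adjusted p = 8.12e-06), with 109.7 ± 30.2 CPM in fusca, 876 CPM in GFP-HY5 and 1051 ± 142 CPM in WT (n = 3 in fusca and WT).

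The counts on the 32 genes were also divided among the complexes. Of these counts, photosystem I held 16.3% ± 0.493 in fusca, 30.7% in GFP-HY5 and 29.5% ± 0.361 in WT (SD, n = 3 in fusca and WT). Photosystem II held 48.2% ± 2.01 in fusca, 42.1% in GFP-HY5 and 42.0% ± 0.0524 in WT. The electron carriers held 25.4% ± 0.564 in fusca, 19.8% in GFP-HY5 and 20.9% ± 0.332 in WT, and the ATP synthase held 10.1% ± 2.00 in fusca, 7.42% in GFP-HY5 and 7.55% ± 0.104 in WT. Fusca and WT libraries did not overlap in any of these 4 shares, although the ATP synthase share in fusca replicate 2, 7.85%, was close to the highest WT value of 7.67%. Among single genes, 15 had a smaller share of these counts in every fusca library than in any WT library, and 11 of the 15 were photosystem I genes. Another 10 had a larger share, led by FD1 with a mean share 3.67 times that in WT, and 7 overlapped. For comparison, in level 24.4% of all tested loci had every fusca library below every WT library and 25.4% had every one above. The shares were not tested, and nothing is read from these counts.

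**Figure D3:**
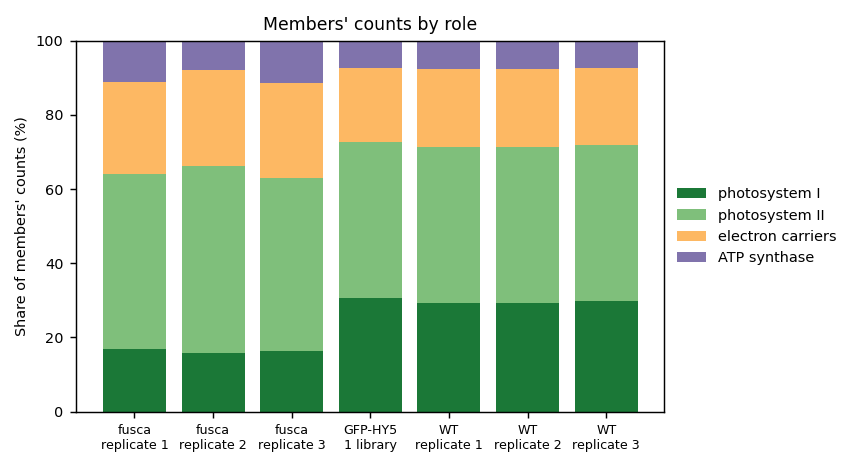
Share of the counts on the 32 genes held by each complex, in percent, as 1 stacked bar per library with fusca at the left, GFP-HY5 next and WT at the right. Photosystem I takes 15.8% to 16.8% of the fusca bars, 30.7% of the GFP-HY5 bar and 29.3% to 29.9% of the WT bars.

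Spread within the groups ran in the same direction over most of the genes. Fusca replicate 2 was the highest fusca library for 30 of the 32 genes, by a median of 0.75 on the log2 scale over the mean of replicates 1 and 3, and by at least 2-fold for 8 of them. Seed storage markers were also high in this library, at 206 CPM in sum, against 2.23 and 2.08 CPM in the other fusca libraries, 0.883 CPM in GFP-HY5 and 1.72 to 4.69 CPM in WT, and their part in this spread was not tested. In WT, replicate 3 was the highest library for 31 of the 32 genes, 0.21 above the group mean at the median gene on the log2 scale. Across the 32 genes, the log2 fold change and the log2 WT level had a Pearson r of 0.34 and a Spearman rho of 0.302, given as a description of genes measured in the same libraries.

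In 7 of 8 pairs of genes for the same protein, fusca and WT libraries did not overlap in how the pair's counts were divided. Separation in level was common in these data, since 24.4% of all tested loci had every fusca library below every WT library and 25.4% had every one above. How often shares within other pairs of genes separate was not computed. The share of PSBQ1 in the PSBQ pair was 87.7% ± 0.673 in fusca, 57.1% in GFP-HY5 and 61.7% ± 1.08 in WT (SD, n = 3 in fusca and WT). FNR1 held 67.7% ± 7.91 of the FNR pair in fusca, 46.3% in GFP-HY5 and 47.5% ± 1.58 in WT. FD1 held 22.6% ± 2.48 of the ferredoxin pair in fusca, 10.3% in GFP-HY5 and 9.92% ± 0.756 in WT. PETE1 held 0.339% ± 0.143 of the plastocyanin pair in fusca, 3.44% in GFP-HY5 and 4.04% ± 0.134 in WT. The gene with more counts differed between the groups in 1 of the 8 pairs, FNR, where FNR1 led in fusca and FNR2 in GFP-HY5 and WT. These counts are not adjusted for gene length. Per kb of gene span, FNR1 and FNR2 had 46.4 and 18.7 CPM per kb in fusca and 515 and 541 CPM per kb in GFP-HY5. In WT they were nearly equal, at 574.7 and 572.2 CPM per kb, with FNR1 slightly ahead. PSAE1 held 69.4% ± 2.22 in fusca, 81.1% in GFP-HY5 and 80.6% ± 0.901 in WT, PSBO1 83.7% ± 1.38 in fusca, 78.6% in GFP-HY5 and 78.3% ± 0.528 in WT, and PSAH1 60.2% ± 1.21 in fusca, 53.7% in GFP-HY5 and 56.8% ± 0.491 in WT. The exact two-sided permutation p was 0.1 for each of these 7 pairs, the smallest that 3 against 3 libraries allow, and 0.114 after Benjamini-Hochberg adjustment over the 8 pairs. For PSAD1 the share was 87.2% ± 2.88 in fusca, 86.0% in GFP-HY5 and 87.7% ± 0.528 in WT, with an exact p of 0.8. Its difference, -0.465 percentage points in fusca against WT, turned to 0.824 without fusca replicate 3. How the authors' counting treated reads shared by near-identical copies is not given in the sources used here, so these divisions are uncertain to that extent.

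**Figure D4:**
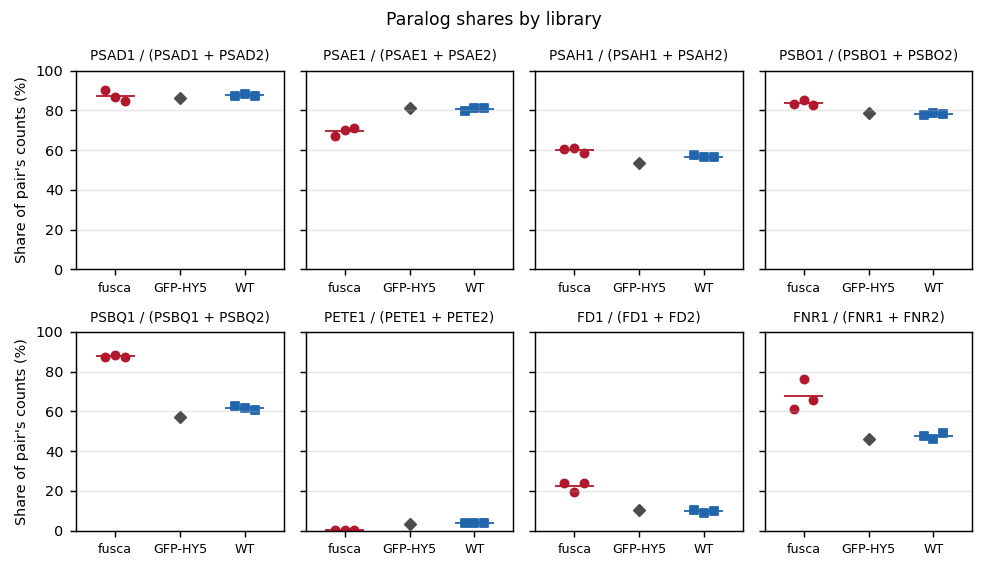
Share of each pair's counts held by the first gene, in percent, for 8 pairs of genes that encode the same protein. Each point is 1 library (circles fusca, diamond GFP-HY5, squares WT) and horizontal lines are means of 3 libraries; PSBQ1 stands at 87.2% to 88.5% in fusca and 60.6% to 62.7% in WT, and PSAD1 overlaps.

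In the GFP-HY5 library the 32 genes stood near their WT levels. The median difference in log2 CPM was -0.15, the range was -0.45 for PSAK to 0.26 for PSAD2, and 0 of 32 differed from WT by 2-fold, against 1.02% of all tested loci at least 2-fold lower and 2.05% at least 2-fold higher. The library lay below the WT range for 17 genes, within it for 14 and above it for 1, where 28.8% of all tested loci were below and 29.5% above. Electron carriers were below the WT range in 5 of 7 genes with a median difference of -0.32, and the ATP synthase in 3 of 3 with -0.16. For photosystem II 6 of 10 were below with a median of -0.16, and for photosystem I 3 of 12 with -0.09. PETE1 and FD2 differed from WT by -0.41 and -0.38. The comparison has 1 GFP-HY5 library and no test, and the median was -0.05 without WT replicate 3 and -0.23 without WT replicate 2.

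Set against the GFP-HY5 library of the same line, fusca was lower again. All 32 genes were at least 2-fold lower in fusca, against 11.7% of all tested loci, and GFP-HY5 lay above the fusca range for all 32, against 32.2% of all tested loci. The median difference in log2 CPM was -4.13, and it was -5.02 for photosystem I, -3.80 for photosystem II, -3.55 for the electron carriers and -3.83 for the ATP synthase. FD1 differed least, by -1.97, and PETE1 most, by -7.02. Both this comparison and that with WT use the same fusca libraries.

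Other nuclear genes of the thylakoid reactions were also lower. Of 16 listed, 15 were tested and all 15 passed as lower, against 18.4% of all tested loci. Their median log2 fold change was -3.03, with a range of -5.75 to -0.72. The number lower was 13 with scaling by library size only and 13 without WT replicate 3. The 3 largest changes are named here. PSBS (AT1G44575), the sensor of energy-dependent quenching in photosystem II, changed by -5.75 ± 0.24 (SE; edgeR adjusted p = 5.48e-07), CURT1B (AT2G46820), which bends thylakoid membranes at grana margins, by -4.35 ± 0.20 (SE; edgeR adjusted p = 7.76e-07), and PPL2 (AT2G39470), a PsbP-like protein linked to the NDH complex, by -4.07 ± 0.21 (SE; edgeR adjusted p = 1.32e-06). All 23 assembly factors of the complexes passed as lower. Their median of -1.73 was a smaller change than that of any of the 32 genes, but some single factors fell by more than FD1 (-2.25). PSB28 (AT4G28660), also of photosystem II, changed by -3.31 on the log2 scale, PSB27 (AT1G03600), a factor of photosystem II assembly and repair, by -3.12 and PPD1 (AT4G15510), a factor of photosystem I assembly, by -2.88 (edgeR adjusted p = 2.33e-06, 2.37e-05 and 3.42e-06).

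The 3 isoforms of ferredoxin and its reductase that serve non-photosynthetic plastids moved in different directions, with 1 lower, 1 higher and 1 not past the threshold. FD3 (AT2G27510), the root-type ferredoxin, averaged 87.2 ± 35.2 CPM in fusca, 87.2 CPM in GFP-HY5 and 98.1 ± 7.16 CPM in WT (n = 3 in fusca and WT), with a log2 fold change of -0.17 ± 0.25 (SE; edgeR adjusted p = 0.641). The sign of FD3 turned to 0.027 without fusca replicate 3 and to 0.25 with scaling by library size only, and without fusca replicate 2 the value was -0.55. Of the root-type reductases, RFNR1 (AT4G05390) rose and RFNR2 (AT1G30510) fell, with log2 fold changes of 0.62 and -1.01 (edgeR adjusted p = 0.0483 and 0.00249). The call of RFNR1 was lost with RLE factors and without any 1 of the WT libraries or fusca replicate 1. Per kb of gene span, FD1 and FD2 together held 84.6% ± 1.21 of the summed level of FD1, FD2 and FD3 in fusca, 97.8% in GFP-HY5 and 98.1% ± 0.253 in WT (SD, n = 3 in fusca and WT). FNR1 and FNR2 held 53.2% ± 6.70 of the summed level of the 4 reductase genes in fusca, 94.4% in GFP-HY5 and 93.9% ± 0.686 in WT.

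The plastid-encoded partners moved unevenly. Of 18 listed, 8 passed as lower and 1 as higher, with a median log2 fold change of -0.84. Of all tested loci, 18.4% passed as lower and 16.7% as higher. psbC (ATCG00280) and psbD (ATCG00270), core proteins of photosystem II, changed by -4.70 and -4.06, and atpB (ATCG00480), the catalytic subunit of the ATP synthase, by -3.03 on the log2 scale (edgeR adjusted p = 1.83e-06, 2.75e-05 and 0.000108). atpF (ATCG00130), chosen after its values were seen as the only one higher, rose by 2.77 on the log2 scale (edgeR adjusted p = 6.82e-06). The number lower was 5 without fusca replicate 3 and 12 without fusca replicate 2, and 2 were higher without fusca replicate 3. RNA in these libraries was selected for poly(A) tails, which most plastid transcripts lack, so plastid values cover a small and possibly uneven part of those transcripts.

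Mitochondrial respiration served as a set of related complexes outside the plastid. Of 18 genes tested, 0 were lower and 1 higher in edgeR, and the same numbers, 0 and 1, were found at an unadjusted p under 0.05 and with DESeq2. In edgeR 18.4% of all tested loci passed as lower and 16.7% as higher. The median log2 fold change of the 18 genes was 0.01, and 0.45 with scaling by library size only, which moved the median of all loci to 0.50. The gene that rose was AOX1A (AT3G22370), the alternative oxidase induced by mitochondrial stress, by 1.58 ± 0.16 (SE; edgeR adjusted p = 6.56e-05). The mitochondrial counterparts of 3 of the 32 genes, chosen after their values were seen, gave log2 fold changes of 0.13 and -0.09 for the 2 Rieske genes, 0.03 for the gamma subunit and -0.10 for the delta subunit counterpart, against -3.75 for PETC, -4.00 for ATPC1 and -4.13 for ATPD. Without fusca replicate 2, 2 of the 18 passed as lower.

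**Figure D5:**
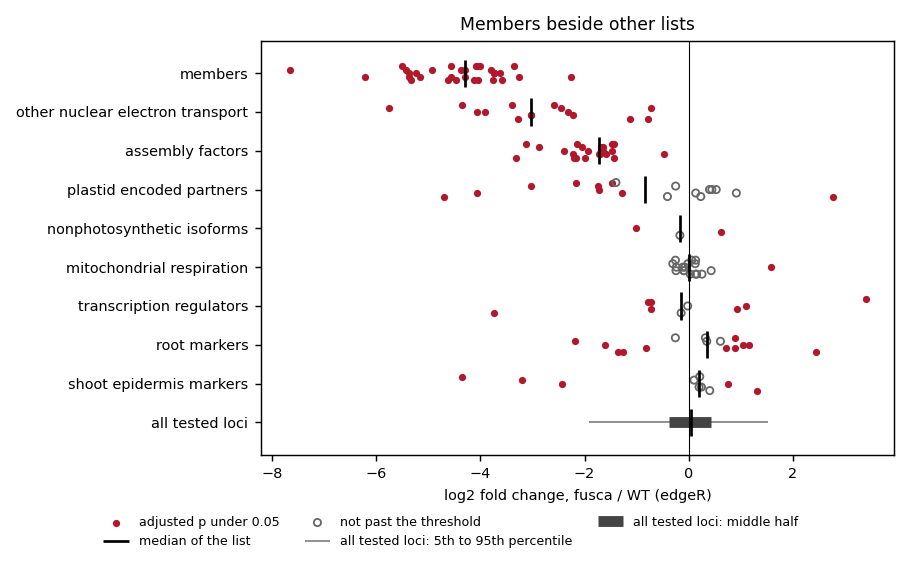
Log2 fold change of fusca against WT for each tested locus of the 32 genes (members) and the other lists, from the edgeR fit. Filled circles passed an adjusted p of 0.05, open circles did not, and bars mark list medians, with all 21820 loci at the bottom as a thick bar between the quartiles and a thin line between the outer percentiles of the legend; the medians are -4.29 for the 32 genes, -3.03 for other electron transport, -1.73 for assembly factors and 0.01 for mitochondrial respiration. The seed list, with 1 tested locus, is not drawn.

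Among 9 transcription and signalling regulators of photosynthesis genes, 4 passed as lower, 3 as higher and 2 did not pass. Of all tested loci, 18.4% passed as lower and 16.7% as higher. The median log2 fold change of the 9 regulators was -0.15, and it turned to 0.29 with scaling by library size only. GLK1 (AT2G20570), an activator of photosystem and antenna genes, had 8.16, 12.2 and 11.9 CPM in fusca, 130.02 CPM in GFP-HY5 and 132, 136 and 159 CPM in WT, and its log2 fold change was -3.73 ± 0.20 (SE; edgeR adjusted p = 1.32e-06). Fusca and WT did not overlap, and GFP-HY5 stood near WT. GLK2 (AT5G44190) changed by -0.73 on the log2 scale (edgeR adjusted p = 0.0418), a call lost with library-size or upper-quartile scaling, without any 1 of the WT libraries and without fusca replicate 1 or 3. HY5 was higher by 3.39 ± 0.21 (SE; edgeR adjusted p = 2.71e-06) in fusca, and by 2.45 in log2 CPM in the GFP-HY5 library, each against WT. Its counts do not separate the transgene from the endogenous gene, so this call, 1 of the 3 higher, cannot be assigned to either. PIF3 (AT1G09530), a bHLH factor that represses greening in the dark, rose by 1.10 ± 0.17 (SE; edgeR adjusted p = 0.000896). The number lower was 1 without any 1 of the WT libraries and 2 without fusca replicate 3.

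Markers of other tissues were examined in the same fit, in which 18.4% of all tested loci passed as lower in fusca and 16.7% as higher. Of 15 root markers, 5 passed as lower and 6 as higher, their summed level was 208 to 308 CPM in fusca, 213 CPM in GFP-HY5 and 242 to 311 CPM in WT, and none was at 0 in any library. The largest log2 fold changes were -2.18 for XTH14 (AT4G25820) and -1.60 for PRX44 (AT4G26010), both of root hairs, and 2.44 for CASP5 (AT5G15290) of the endodermis, which rests on 4 to 12 counts in WT. Of 10 shoot epidermis markers, 3 passed as lower and 2 as higher, and their sum was 2659 to 3106 CPM in fusca, 1603 CPM in GFP-HY5 and 1573 to 1651 CPM in WT, and none was at 0. GC1 (AT1G22690) and FAMA (AT3G24140), both of guard cells (GC1 overlaps PYG7, one of the assembly factors), changed by -4.35 and -2.44, and CER1 (AT1G02205), of wax synthesis, by -3.21 on the log2 scale. Guard cell genes did not all fall. MYB60 (AT1G08810), also of guard cells and chosen after its values were seen, changed by 0.10 and did not pass (edgeR adjusted p = 0.626). LTP1 (AT2G38540), the most abundant of that list and chosen after its values were seen, averaged 1967 ± 246 CPM in fusca, 722 CPM in GFP-HY5 and 794 ± 24.7 CPM in WT (n = 3 in fusca and WT). This gene thus made up most of the list's sum in fusca. Without fusca replicate 2, 4 of the 10 were higher. Of 9 seed markers, 1 was tested, CRA1 (AT5G44120), and it did not pass (edgeR adjusted p = 0.112). The part of any of these tissues in the fall of the 32 genes was not tested. In the RefSeq table another locus overlaps 11 of the 32 genes, namely PSAD2, PSAE1, PSAE2, PSAG, PSAH1, PSAH2, PSAN, PSBP1, PSBR, FD1 and FNR1. The share of reads the counting step could not assign to 1 locus was 0.669% to 0.798% in fusca, 0.594% in GFP-HY5 and 0.572% to 0.580% in WT. Overlap was taken without regard to strand, and the annotation used for counting is not given. How far such reads touch those 11 genes is thus not known.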

How the data were processed

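The deposited file gives raw counts of reads for each locus, of the sense strand per its name, for 9 polyadenylated RNA samples out of 29 in the series. The submitters' processing notes name Trim Galore, STAR, HTSeq, deepTools and the TAIR10 build, without roles, and the annotation is not given in the sources used here. The 20 ChIP-seq samples were not analysed here.

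Reads on no feature (48.4% to 48.9% of a column) and the other 4 summary rows that name no locus were left out of totals and tests. The 3 GFP-HY5 columns hold identical counts in all 60004 rows and entered as 1 library, which adds no residual degree of freedom. Loci were kept by filterByExpr on the fusca and WT libraries (21820 of 59999), scaled with TMM and tested with edgeR 4.0.16 in R 4.3.3 (estimateDisp, glmQLFit, glmQLFTest), with Benjamini-Hochberg adjustment over all tested loci and a threshold of 0.05. Standard errors were derived from the fold change and the F statistic. For GFP-HY5 the comparisons are untested differences in log2 CPM (prior count 2). Shares within pairs were compared by exact permutation. Counts per library set the precision, and Wilson intervals cover counting error only.

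The 32 genes, the other lists and the tests were chosen with earlier results of these data known. Named are all 32, HY5, GLK1, GLK2 and, per other list, up to 3 loci with the largest change past the threshold (all of a list of 3). RefSeq names (TAIR10.1) matched 135 of 135 listed nuclear loci, and no coordinates are given. Alternatives were other scalings, DESeq2 1.42.0, other count filters, other sets of loci or libraries, a replicate block and each replicate left out.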

Additional observations from a re-analysis of the deposited data

Results flagged for a closer look

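The share of reads that the counting step could not assign to a single locus, which no comparison uses, was higher in fusca, at a mean of 0.748%, than in GFP-HY5, at 0.594%, and WT, at 0.575% ± 0.00409 (SD, n = 3). Single fusca libraries held 0.798%, 0.669% and 0.778%, and all 3 lay above the WT range. Reads of this kind are missing from the counts of overlapping loci, and 11 of the 32 genes overlap another locus in the RefSeq table.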

How the results depend on the processing

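All 32 genes remained lower in fusca and past the threshold under each of 16 alternatives (512 of 512 values), with a largest adjusted p of 0.00145, list medians of -4.66 to -3.86 and single log2 fold changes of -7.96 to -1.82. The median difference of GFP-HY5 from WT was -0.23 to -0.05 over its alternatives, with 13 to 24 genes below the WT range, and that of fusca from GFP-HY5 was -4.49 to -3.75. Over all loci, scaling by library size only gave 2585 lower and 10189 higher, so 79.8% of calls were higher, against 47.6% with TMM and 61.1% with upper-quartile factors, and the median log2 fold change of all loci was 0.50 and 0.20 with these scalings, against 0.05. With library size only, 3 plastid partners, 11 mitochondrial genes and 6 epidermis markers were higher and 1 regulator was lower, and with upper-quartile factors 2 regulators were lower. With RLE factors 0 non-photosynthetic isoforms were higher. With DESeq2 or no count filter 2 plastid partners were higher. Seed markers higher numbered 6 with no filter and 2 with a mean of at least 10 counts, which test more of that list. FD3 turned to 0.25 with library size only, and it was -0.55 to 0.027 with 1 replicate left out. Over the sets with 1 replicate left out, the number lower was 1 to 2 for non-photosynthetic isoforms, 5 to 12 for plastid partners, 0 to 2 for mitochondrial genes, 1 to 4 for regulators and 0 to 1 for seed markers. The number higher was 0 to 1 for non-photosynthetic isoforms, 1 to 2 for plastid partners, 2 to 4 for epidermis markers and 0 to 1 for seed markers. The share of PSAD1 in its pair, fusca minus WT, was -2.02 to 0.824 points. Beyond the number of loci tested or libraries kept, the cause was not tested. Where 1 replicate was left out, its group had 2 libraries.

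Replicate numbers gave no sign of pairing: deviations of same-numbered fusca and WT libraries had correlations of -0.05, -0.11 and -0.20, and no library correlated best with its own number. With the number as a replicate block the median of the 32 genes was -4.33, all 32 stayed past the threshold, and 3528 loci were lower and 3246 higher. Depth limits loci with few counts, such as PETE1 in fusca, CASP5 in WT and the seed markers outside fusca replicate 2.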
